A study of Mus musculus with 16 samples.

Results

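The 9 genes described here are imprinted genes with roles in fetal and tissue growth. They are the noncoding RNA genes H19, Meg3 and Rian and the protein-coding genes Dlk1, Peg3, Mest, Plagl1, Grb10 and Ndn. They were taken by symbol from a table of 24187 genes, and all 9 were found, each as 1 row. The study measured messenger RNA in mammary gland at day 13 of pregnancy by sequencing of poly(A) RNA. The wild-type group (C57BL/6) had 4 libraries, here WT1 to WT4 by replicate number, and the mutant group, named Socs2-Δs, made by CRISPR/Cas9 editing and labelled with that strain too, had 3, here Mut1 to Mut3. Socs2 encodes a feedback inhibitor of cytokine signalling. The labels give no age and do not state how many lines were edited or whether libraries were separate animals, so that p-values measure only the spread between these libraries. The wild-type mice were purchased, so that breeding source and genotype cannot be told apart. The genotype tag of the 3 mutant samples reads wild type, against their titles, and the libraries were grouped by title.

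Genomic imprinting silences a gene on the copy inherited from one parent. H19, Meg3, Rian and, in most tissues, Grb10 are expressed from the maternal copy, and Dlk1, Peg3, Mest, Plagl1 and Ndn from the paternal copy. Several of these genes belong to a network that is high in the fetus, falls after birth and sets growth, with the zinc finger factor Plagl1 as a known regulator of other members; in adult tissue they are known from stem cells, muscle and the stroma and precursors of fat. Expression was measured as a sum over both copies, so that imprinting itself was not measured.

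Values are FPKM (by definition, reads scaled to gene length and library size) and can be compared between genes because they are per length. Depth was recovered from the steps between low values and was 21.3 to 24.5 M (mega) reads per library. Relative to WT1 (21.33 M), 1 read counted for 1.197 in WT3 (24.51 M) and 1.25 in WT4 (21.82 M). The scaling of the values thus did not follow these totals, and what it used was not determined. WT3 and WT4 stood apart, with a first principal component of 57.1 and 77.9 against -37.7 to -15.8 and 61.6% of the variance. Of 10 salivary gland markers, 5 were above 0 in every library and none was at 0 in all libraries. Their summed level was 397.3 and 236.6 FPKM in WT3 and WT4 and 45.9 to 99.4 elsewhere. Both are shown apart, and the comparison of the 8 members in the fit is given with all 7 libraries and without these 2, a choice made with the values known. Socs2 itself measured 16.1 to 25.6 FPKM in wild-type and 13.9 to 17.1 in mutant libraries. Defining markers of gland were present in every library, with Krt8, a luminal keratin, at 161.0 to 392.3 FPKM and Csn2, beta-casein, at 1940 to 20120 FPKM in wild-type and 31560 to 44990 in mutant libraries.

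The imprinted growth genes were mostly lower in Socs2-Δs glands, but with 7 libraries none passed the test. Plagl1, Grb10 and Ndn were lower in each mutant library than in each wild-type library, at 0.482, 0.629 and 0.389 of the wild-type mean. H19 stood at 0.50 of the wild-type mean and Mest at 0.356, with overlap of the groups. Without WT3 and WT4, Meg3 and Plagl1 fell, to 0.348 and 0.50 of the mean of WT1 and WT2. Dlk1 was at a low level, and its groups overlapped.

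The limma fit used log2(FPKM + 1), a scale on which low genes change less than in FPKM. Of the 9 genes, 8 entered with a mean of at least 1 FPKM; each of the 8 also had a mean above 1 in both groups, and Dlk1 did not enter. With 7 libraries 0 of the 8 passed at a Benjamini-Hochberg adjusted p under 0.05, where 0.0448% of the 13392 genes tested passed as higher and 0% as lower. At an unadjusted p under 0.05 (limma), 4 of the 8 were lower and 0 higher, beside 8.98% of all genes lower and 9.12% higher. The log2 difference, mutant minus wild type, was below 0 for 7 of the 8, beside 50.4% of all genes, and the median was -0.755 against -0.00442 for all genes. The groups did not overlap, with the mutant lower, for 3 of the 8, beside 10.0% of all genes (12.5% with the mutant higher). Without WT3 and WT4, 2 of the 8 fell (limma), and 0 rose, beside 0.716% of 13276 genes that passed as lower and 1.42% as higher, and all 8 were below 0, beside 44.6%. The groups then did not overlap, with the mutant lower, for 6 of the 8, beside 18.2% (22.0% with the mutant higher), and the median was -0.92 against 0.0332 for all genes. The calls of Meg3 and Plagl1 rested on every library: leaving out any 1 of the 5 libraries, or the mean-variance trend, left 0 of the 8. When WT3 and WT4 were kept and given a term of their own, 0 genes passed in all.

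**Figure D1:**
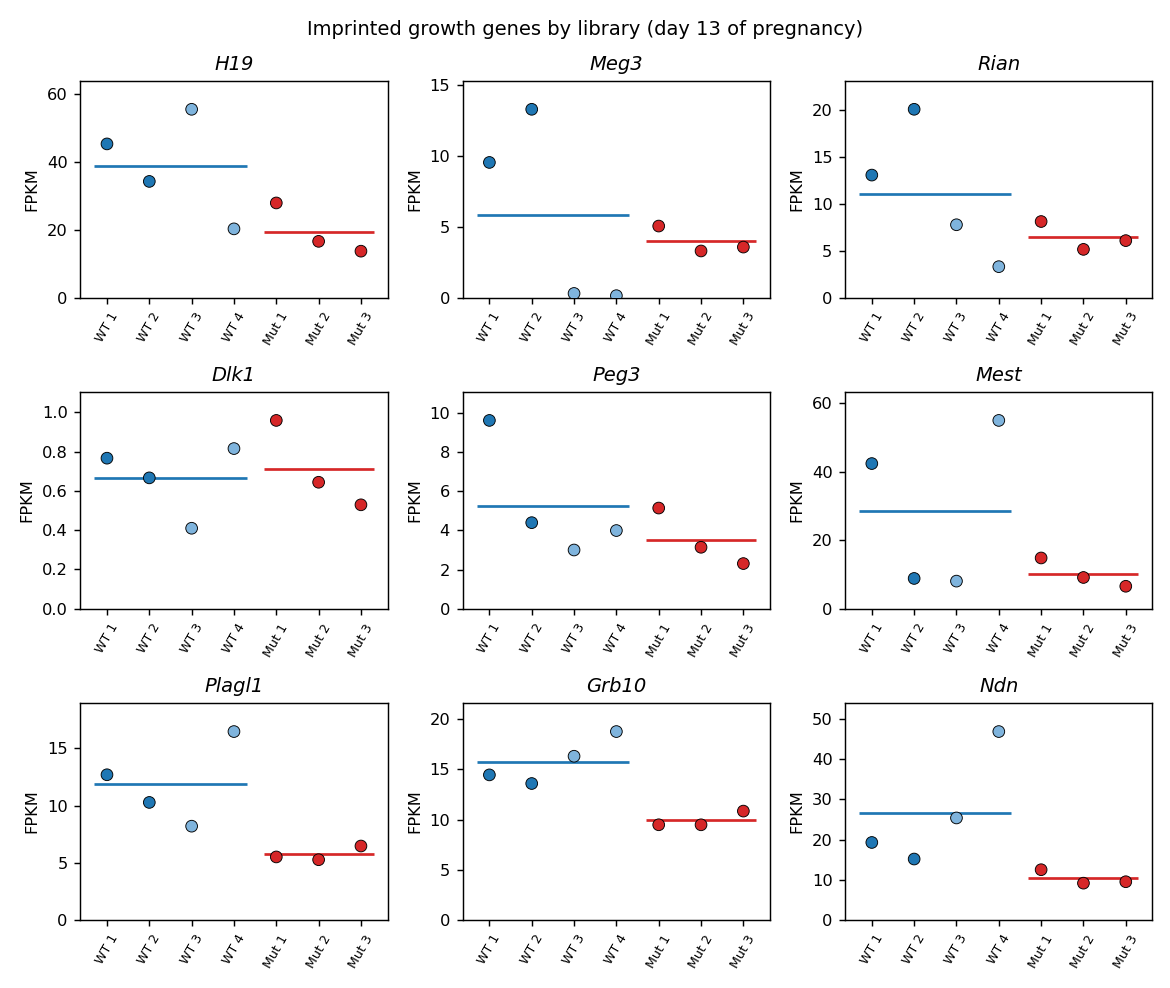
FPKM (vertical axes, from 0) of the 9 genes in each library (horizontal axes), with dark blue points for WT1 and WT2, light blue for WT3 and WT4 and red for mutant libraries; lines are group means. Plagl1, Grb10 and Ndn show no overlap of the groups, and Meg3 is near 0 in WT3 and WT4 (0.297 and 0.14 FPKM).

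**Figure D2:**
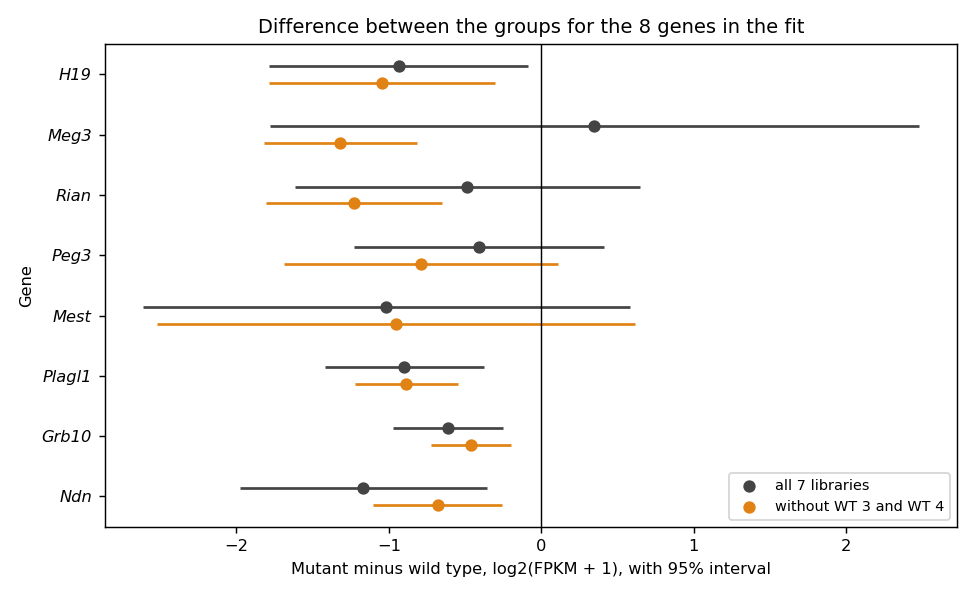
Difference between the groups on the log2(FPKM + 1) scale (horizontal axis; points are estimates and lines 95% intervals of the limma fit) for the 8 genes in the fit, with all 7 libraries in grey and without WT3 and WT4 in orange. All points but that of Meg3 with 7 libraries (0.35) lie below 0, and the intervals of Mest and Peg3 span 0 in both.

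Sequences are shown for small RNAs that the transcripts of members carry and for promoters of members on which the comparison turned. The first exon of H19 carries the hairpin of miR-675, and an intron of Mest that of miR-335. Their mature forms, with the seed (bases 2 to 8) in capitals, are given from RefSeq, build GRCm38.p6, at chr7:142577112-142577133 (5p) and chr7:142577078-142577099 (3p) on the minus strand and chr6:30741314-30741336 and chr6:30741354-30741375 on the plus strand. No seed is shared among the 4.
miR-675-5p: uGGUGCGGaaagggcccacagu
miR-675-3p: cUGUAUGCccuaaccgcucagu
miR-335-5p: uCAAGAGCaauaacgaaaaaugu
miR-335-3p: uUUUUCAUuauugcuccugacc
The rows of both hairpin genes were listed at 0 in all 7 libraries, and so were those of the 2 microRNA genes within Meg3. Of the 3 within Rian, 1 was at 0 throughout. Mir1188 was above 0 in 2 libraries (0.409 FPKM at most) and Mir341 in 1 (0.434 FPKM). Poly(A) libraries are not made to hold such short RNAs, so that the host transcripts are what was measured here. Of the 11 small nucleolar RNA genes within Rian, 7 had a row, 3 of which were listed at 0 throughout. The highest of them, AF357359, measured 19.6, 29.1, 14.1 and 4.90 FPKM in WT1 to WT4 and 14.2, 10.0 and 3.09 in Mut1 to Mut3, and reads of it cannot be told apart from those of its host.

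Promoter windows of 300 bases, 250 before and 50 after a start, were found for 8 of the 9 genes (12 windows; none for H19) in the RefSeq table of GRCm38.p6. Each was searched on both strands for the STAT5-type motif TTCNNNGAA, because the series is about STAT5, and for GGGGCCCC, a motif known for Plagl1. Both read the same on either strand, and their matches did not overlap. TTCNNNGAA was in 1 of the 12 windows, that of Rian, and in 8.3% of all 32851 windows. GGGGCCCC was in 1 of the 12, that of Peg3, and in 1.08% of all windows. The 250 bases before the start are printed for Plagl1 and Meg3, which fell without WT3 and WT4, and for Rian and Peg3, which held a match, with the motif in capitals. They lie at chr10:13090582-13090831 (plus strand), chr12:109540746-109540995 (plus), chr12:109603695-109603944 (plus) and chr7:6730420-6730669 (minus).
Plagl1: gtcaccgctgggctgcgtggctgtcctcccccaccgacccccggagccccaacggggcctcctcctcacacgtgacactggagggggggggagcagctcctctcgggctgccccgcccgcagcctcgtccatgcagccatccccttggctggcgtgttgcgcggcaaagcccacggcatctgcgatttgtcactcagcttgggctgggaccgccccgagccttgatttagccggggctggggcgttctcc
Meg3: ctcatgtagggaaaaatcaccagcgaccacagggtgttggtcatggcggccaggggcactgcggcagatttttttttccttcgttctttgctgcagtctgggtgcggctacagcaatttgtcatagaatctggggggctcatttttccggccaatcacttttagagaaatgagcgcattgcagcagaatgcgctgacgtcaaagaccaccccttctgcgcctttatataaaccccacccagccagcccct
Rian: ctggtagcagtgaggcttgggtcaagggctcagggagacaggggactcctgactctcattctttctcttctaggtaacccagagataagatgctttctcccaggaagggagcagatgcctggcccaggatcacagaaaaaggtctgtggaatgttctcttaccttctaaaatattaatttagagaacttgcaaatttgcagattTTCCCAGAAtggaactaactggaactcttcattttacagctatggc
Peg3: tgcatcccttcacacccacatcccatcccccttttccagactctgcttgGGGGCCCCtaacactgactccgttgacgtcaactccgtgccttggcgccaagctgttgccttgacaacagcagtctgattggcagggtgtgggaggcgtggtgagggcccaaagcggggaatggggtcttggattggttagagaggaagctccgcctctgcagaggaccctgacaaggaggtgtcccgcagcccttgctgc
The windows of Plagl1 and Peg3 had 70.7% and 61.3% of G and C, those printed for Meg3 and Rian 53.7% and 49.3%, and the median of all windows was 52.7%. Plagl1 had 26 CpG pairs in its window and Rian 0, against a median of 7 over all windows. A match of letters is a description, and no binding data were analysed here.

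Plagl1, also called Zac1, encodes a zinc finger transcription factor that halts the cell cycle and regulates other imprinted genes. It measured 12.7, 10.3, 8.20 and 16.5 FPKM in WT1 to WT4, from 919 to 1768 reads. The mutant libraries held 5.51, 5.27 and 6.47 FPKM, from 644 to 735 reads. Every mutant library lay below every wild-type library, and WT3 and WT4 were the lowest and the highest of their group. The log2 difference was -0.90 (SE 0.23, limma adjusted p = 0.159) with 7 libraries. Without WT3 and WT4 it was -0.89 (SE 0.14) and passed (limma adjusted p = 0.0404). The size was thus nearly the same in both comparisons, and the p without any 1 of the 5 libraries ran from 0.0718 to 0.260 (limma, adjusted).

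Grb10 encodes an adaptor protein that binds insulin and growth factor receptors and restrains growth. It measured 14.5, 13.6, 16.3 and 18.8 FPKM in WT1 to WT4 and 9.49, 9.48 and 10.8 in Mut1 to Mut3. The groups were narrow and did not overlap, and WT3 and WT4 were the highest. Grb10 differed by -0.61 on the log2 scale (SE 0.16, limma adjusted p = 0.160), and -0.46 (SE 0.11, adjusted p = 0.0915) without them. Neither passed, and the 95% intervals were -0.97 to -0.25 and -0.72 to -0.20.

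Ndn encodes necdin, a MAGE family protein that holds back cell cycle entry and is known from neurons, muscle and fat precursors. It measured 19.3, 15.2, 25.4 and 46.9 FPKM in WT1 to WT4 and 12.5, 9.15 and 9.50 in Mut1 to Mut3. The groups did not overlap, but the gap to WT2 was small and WT4 stood far above the rest. Ndn differed by -1.17 on the log2 scale (SE 0.35, limma adjusted p = 0.186). Without WT3 and WT4 it was -0.68 (SE 0.17, adjusted p = 0.105), so that the difference was 1.17 with them and 0.68 without them, in size.

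Peg3 encodes a large zinc finger protein, known as a marker of resident stem and stromal cells. WT1 to WT4 held 9.605, 4.39, 2.998 and 3.99 FPKM, and Mut1 to Mut3 held 5.14, 3.14 and 2.31. WT1 alone was high, and the other 6 libraries overlapped. Peg3 differed by -0.41 on the log2 scale (SE 0.36, limma adjusted p = 0.517), and -0.79 (SE 0.37, adjusted p = 0.303) without WT3 and WT4, where leaving out WT1 brought it to -0.30.

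Mest encodes a membrane protein with the fold of a hydrolase, known from fat tissue as it enlarges. It measured 42.3 and 54.9 FPKM in WT1 and WT4 and 8.84 and 8.07 in WT2 and WT3. The mutant libraries, with 14.8, 9.13 and 6.57 FPKM, lay around the lower of these pairs. The wild-type group was thus split, with 1 of WT1 and WT2 and 1 of WT3 and WT4 on either side. The log2 difference was -1.02 (SE 0.69, limma adjusted p = 0.418), and -0.95 (SE 0.64, adjusted p = 0.466) without WT3 and WT4. In the latter it turned to 0.11 when WT1 was left out too.

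Other genes of imprinted domains and of fat shared this split in part. Klf14, an imprinted factor gene near Mest, measured 2.81 and 4.79 FPKM in WT1 and WT4 and 0.234 to 0.645 in the other 5 libraries. Nnat, an imprinted gene of a small membrane protein, measured 543.4 and 546.3 FPKM there and 44.4 to 238.9 elsewhere. Lep, the hormone leptin of fat cells, held 215.9 and 509.7 FPKM in these 2 libraries and 20.0 to 42.8 in the others. Sfrp5 and Npr3, known with Mest from enlarging fat, measured 26.8 and 60.5 and 35.96 and 113.1 FPKM there, against 1.73 to 5.71 and 4.92 to 10.8 in the other 5. Klf14, Nnat, Lep, Sfrp5 and Npr3 were chosen with values in view. Copg2, the convergent neighbour of Mest, did not show the split, with 14.3 to 20.0 FPKM over all libraries. None of these 6 passed with 7 libraries (limma adjusted p from 0.294 for Lep to 0.868 for Copg2). Fat markers as a set did not show the split. The sum of 10 adipocyte markers, Lep among them, was 10930, 12660, 13480 and 23050 FPKM in WT1 to WT4, lowest in WT1. Adipoq, 1 of these markers, measured 1028, 633.3, 900.2 and 2486 FPKM there, with WT1 near WT3.

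**Figure D3:**
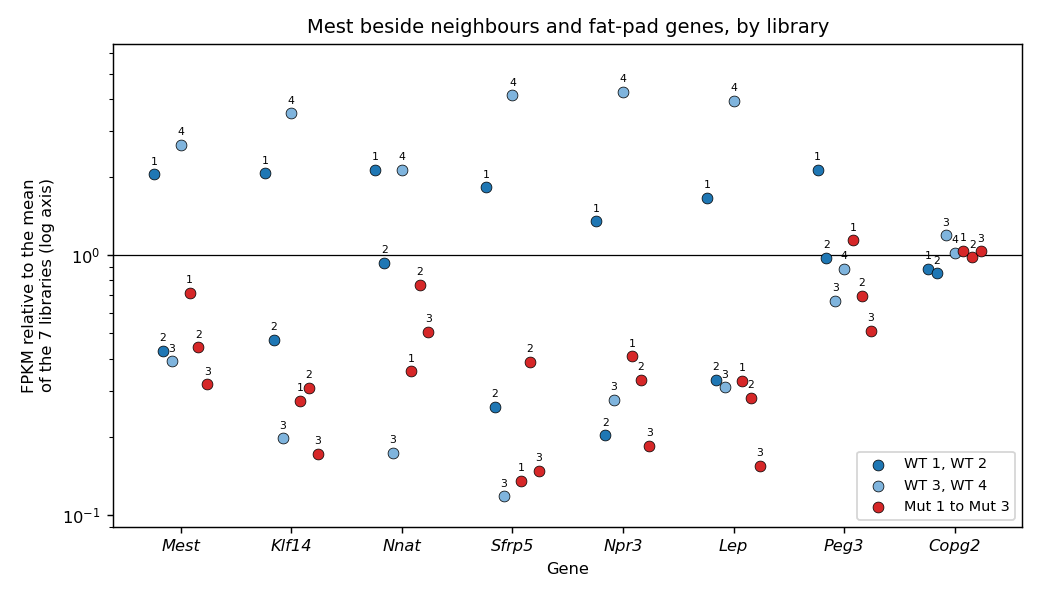
FPKM divided by the mean of the 7 libraries (vertical log axis) for Mest and 7 other genes (horizontal axis), with dark blue points for WT1 and WT2, light blue for WT3 and WT4 and red for mutant libraries; small numbers are replicate numbers. WT1 and WT4 are the 2 highest for Mest, Klf14, Nnat, Sfrp5, Npr3 and Lep, whereas Copg2 stays within 14.3 to 20.0 FPKM.

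Dlk1 encodes Pref-1, a surface protein that keeps fat precursors from maturing. Its level was 0.766, 0.666, 0.41 and 0.815 FPKM in WT1 to WT4, from 42 to 94 reads. Mut1 to Mut3 held 0.959, 0.644 and 0.529 FPKM, from 55 to 108 reads. The libraries of both groups were intermixed, and no library reached 1 FPKM. In a fit with no filter on low values the log2 difference was 0.04 (95% interval -0.26 to 0.33, limma adjusted p = 0.891). On this scale a gene of such a level can show only small differences.

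H19 is a spliced noncoding RNA, among the most abundant transcripts of fetal tissues, that shares enhancers with Igf2. It was the most abundant of the 9 by the mean of the 7 libraries. WT1 to WT4 held 45.2, 34.2, 55.4 and 20.2 FPKM and Mut1 to Mut3 held 27.9, 16.6 and 13.7. WT4 alone among the wild-type libraries lay between mutant values. H19 differed by -0.94 on the log2 scale (SE 0.37, limma adjusted p = 0.252), and -1.05 (SE 0.30, adjusted p = 0.133) without WT3 and WT4. Skeletal muscle, a tissue known for H19, left markers in the libraries: the sum of 12 of them was 253.5, 41.2, 1128 and 204.6 FPKM in WT1 to WT4 and 176.2, 134.2 and 42.6 in Mut1 to Mut3. The 2 highest libraries of H19 were also the 2 highest in muscle markers. WT2 had the least muscle signal and the third highest H19. The part of muscle in the H19 difference was not tested.

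Igf2, the paternally expressed growth factor gene beside H19, measured 31.5, 27.5, 32.6 and 16.45 FPKM in wild type and 14.07, 13.97 and 14.05 in mutant libraries. It was low in WT4, as was H19. Its log2 difference was -0.85 (SE 0.24, limma adjusted p = 0.174), and without WT3 and WT4 it fell by 1.016 on the log2 scale (limma adjusted p = 0.0211), again a call that ended when any 1 of the 5 libraries was left out. The ratio of Igf2 to H19 was 0.696, 0.804, 0.589 and 0.813 in wild type and 0.505, 0.844 and 1.03 in mutant libraries. On the log2(FPKM + 1) scale it differed by 0.08, which did not pass (exact two-sided permutation test over 35 splits, p = 0.80, adjusted over 3 ratios 0.80; the smallest possible p was 0.0286). The ratio thus overlapped between the groups. Cdkn1c, farther along the domain, a cell cycle inhibitor expressed from the maternal copy, measured 16.7 to 27.7 FPKM in wild-type and 10.9 to 19.7 in mutant libraries (log2 difference -0.62, limma adjusted p = 0.277; -0.30, adjusted p = 0.555, without WT3 and WT4). Igf2r, on another chromosome, the maternally expressed receptor that clears the Igf2 product, was higher in each mutant library (8.88 to 11.8 FPKM) than in each wild-type library (6.40 to 8.15), without passing (log2 difference 0.35, limma adjusted p = 0.287; 0.26, adjusted p = 0.383, without WT3 and WT4).

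Meg3 and Rian are noncoding RNAs of the Dlk1-Dio3 domain, made from the same strand and the same parental copy. Meg3 measured 9.54 and 13.3 FPKM in WT1 and WT2 and 5.05, 3.29 and 3.57 in mutant libraries. In WT3 and WT4 it was nearly absent, at 0.297 and 0.14 FPKM, from 82 and 37 reads against 3151 and 4138 in WT1 and WT2. With 7 libraries the mutant libraries thus lay between WT1 and WT2 and the other wild-type libraries, and the log2 difference was 0.35 (SE 0.92, limma adjusted p = 0.843). Without WT3 and WT4, Meg3 fell by 1.32 on the log2 scale (SE 0.20, adjusted p = 0.0404), and the adjusted p without any 1 of the 5 libraries ran from 0.0722 to 0.186. By mean FPKM the mutant libraries stood at 0.683 of wild type with all 7 libraries, so that the difference above 0 held on the log2 scale with equal weight for each library and not for the means. With array weights, which keep WT3 and WT4 and weight each library by its spread, it was -1.23 (limma adjusted p = 0.113).

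Rian, the host of small nucleolar RNAs, measured 13.1, 20.1, 7.77 and 3.302 FPKM in WT1 to WT4 and 8.11, 5.15 and 6.08 in mutant libraries. The mutant libraries lay below WT1 and WT2, and WT4 lay below them all. The log2 difference was -0.49 (SE 0.49, limma adjusted p = 0.572), and -1.23 (SE 0.24, adjusted p = 0.0619) without WT3 and WT4. The ratio of Rian to Meg3 was 1.37 and 1.51 in WT1 and WT2, 1.56 to 1.70 in mutant libraries, and 26.1 and 23.6 in WT3 and WT4. On the log2(FPKM + 1) scale the groups differed in it by -0.83, which did not pass (exact two-sided permutation test, p = 0.40, adjusted over 3 ratios 0.80). The ratio of Dlk1 to Meg3 was 0.0803 and 0.0501 in WT1 and WT2, 1.38 and 5.82 in WT3 and WT4 and 0.148 to 0.195 in mutant libraries. On the log2(FPKM + 1) scale the groups differed in it by -0.31 (exact permutation p = 0.743, adjusted 0.80). That value depends on the added 1 at such low levels, and with 0.1 added instead it was -1.01.

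Some other genes of the domain were low in WT3 and WT4, and others were not. Mirg, a noncoding RNA farther along the same strand, measured 1.57, 2.98, 0.253 and 0.113 FPKM in wild type and 0.855, 1.16 and 0.713 in mutant libraries. Begain, a neighbour on the far side of Dlk1, measured 6.42, 7.26, 1.06 and 1.16 FPKM in wild type and 4.34, 2.55 and 2.75 in mutant libraries. For both, the mutant libraries lay below WT1 and WT2 and WT3 and WT4 below all of the mutant ones, and neither passed in either comparison (limma adjusted p from 0.0799 to 0.980). Begain was chosen with values in view. Wdr25 and Wars, farther out on that side, stood in WT3 and WT4 at 0.989 and 0.883 of the mean of WT1 and WT2, and Dlk1 at 0.855. On the other side, Ppp2r5c stood at 1.40 and Dync1h1, beyond it, at 0.606. Rtl1, a retrotransposon-derived gene of the domain on the opposite strand, stayed below 0.33 FPKM in all libraries, with 4 to 41 reads. In WT3 and WT4 it stood at 0.332 of the mean of WT1 and WT2. The sources used here do not say whether reads were counted by strand, so that reads of Meg3, Rtl1 and other overlapping or antisense genes, and of Mest and Copg2, cannot be told apart where they overlap.

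Other nuclear noncoding RNAs were low in WT3 and WT4 together with Meg3. Meg3 was 52.2-fold lower there than in WT1 and WT2, by the ratio of means. Neat1, which builds paraspeckles, was 34.7-fold lower, and Xist, which coats the silent X chromosome, 18.3-fold lower. Firre, a nuclear RNA of the X chromosome, measured 48.5 and 37.1 FPKM in WT1 and WT2, 42.4 to 63.1 in mutant libraries and 0.708 and 0.672 in WT3 and WT4. Rian was lower by 2.99-fold, Malat1, a nuclear speckle RNA, by 2.22-fold and Kcnq1ot1, a long RNA of another imprinted domain, by 1.56-fold. H19, which is largely cytoplasmic, measured 55.4 FPKM in WT3 and 20.2 in WT4, above and below its mean of 39.7 in WT1 and WT2. Low values there were not limited to noncoding RNAs. The protein-coding genes Cyp46a1 and Dna2, picked for a pattern like that of Meg3, were lower by 14.8-fold and 3.12-fold. These are values of libraries and carry no test, since WT3 and WT4 are not a group of the study. In mutant libraries Meg3 stood at 0.348, Mirg at 0.399 and Snhg11 at 0.418 of the mean of WT1 and WT2, whereas the means of Neat1, Xist and Firre were above those of WT1 and WT2 (ratios of 1.21 for Neat1, 1.11 for Xist and 1.17 for Firre).

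**Figure D4:**
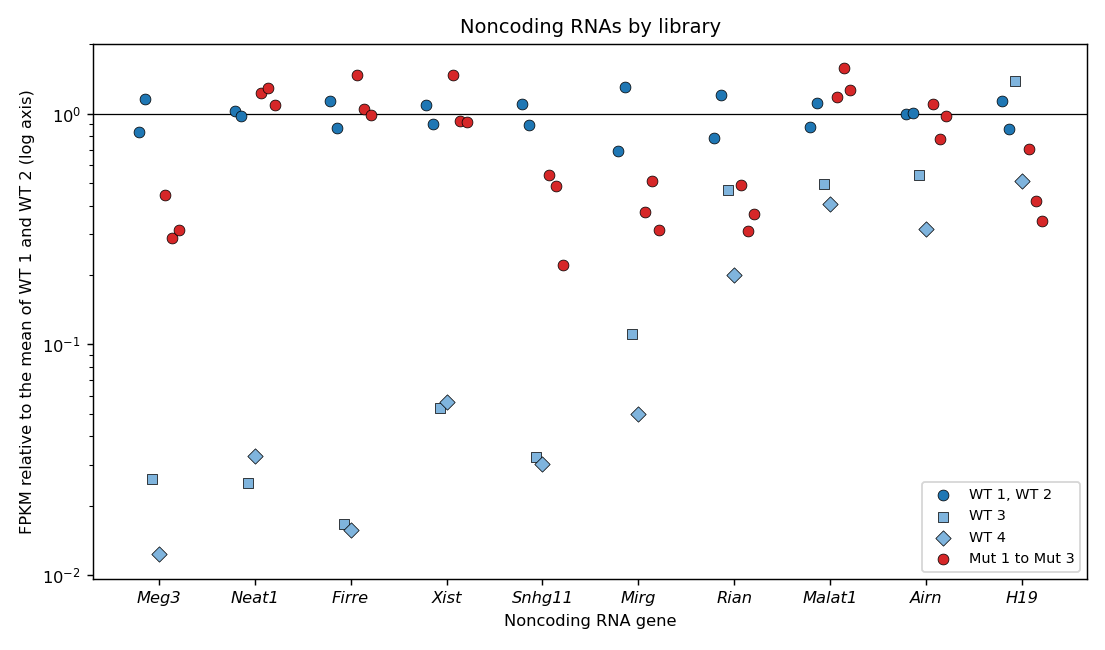
FPKM divided by the mean of WT1 and WT2 (vertical log axis) for 10 noncoding RNA genes (horizontal axis), with dark blue points for WT1 and WT2, a light blue square and diamond for WT3 and WT4 and red points for mutant libraries. Meg3 lies far below 1 in WT3 and WT4, as do Neat1, Firre, Xist and Snhg11, while in mutant libraries Meg3, Rian and Mirg lie below 1 and Neat1 above it.

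Other imprinted genes were divided in direction. Of 50 listed, 49 had a row and 28 entered the fit, and 0 passed with 7 libraries (limma; at an unadjusted p under 0.05, 5 were lower and 0 higher, beside 8.98% and 9.12% of all genes). Their log2 differences were below 0 for 16 and above 0 for 12, beside 50.4% of all genes below 0, with a median of -0.117. The 10 listed as paternally expressed had a median of -0.558 and the 18 listed as maternally expressed of -0.01. Whether these genes were imprinted in this tissue was not measured, and the difference between these lists was not tested. Klf14, Atp10a, Slc38a4 and Mirg had mutant means below 1 FPKM and entered through their wild-type values, and Kcnq1 entered through its mutant values. Without WT3 and WT4 only Igf2 of the 28 then tested fell (limma), beside 0.716% of all genes, and the median was -0.07. With 7 libraries the largest differences below 0 were those of Sgce, a sarcoglycan, and Slc22a3, an organic cation transporter. Sgce measured 14.2 to 41.6 FPKM in wild-type and 9.01 to 10.3 in mutant libraries (-1.13, limma adjusted p = 0.175), and Slc22a3 5.54 to 13.2 and 2.92 to 4.17 (-0.98, adjusted p = 0.183). The largest above 0 were those of Ppp1r9a (0.37, limma adjusted p = 0.394), a neighbour of Sgce in its domain, and Igf2r. The differences without WT3 and WT4 were -0.75 for Sgce, -0.85 for Slc22a3 and 0.05 for Ppp1r9a (limma adjusted p = 0.0652, 0.113 and 0.903). The largest were then -1.44 for Nnat and 0.59 for Slc22a18, a transporter gene near Cdkn1c (limma adjusted p = 0.156 and 0.0659). Magel2 and Usp29, neighbours of Ndn and Peg3, stayed at or below 0.022 FPKM in all libraries, on no more than 4 reads in a library.

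**Figure D5:**
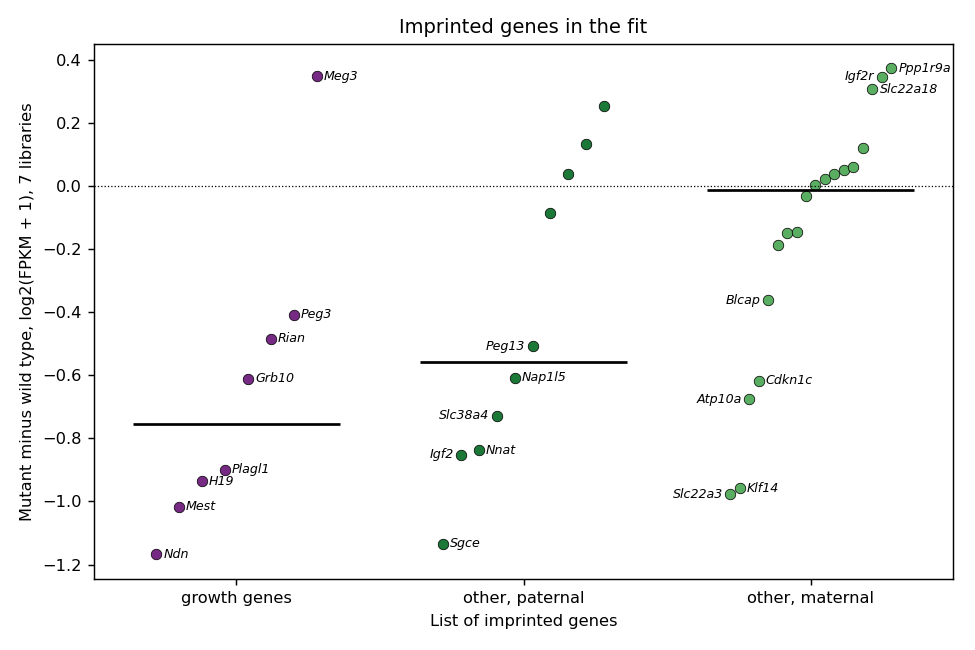
Difference between the groups on the log2(FPKM + 1) scale with 7 libraries (vertical axis) for each imprinted gene in the fit, by list (horizontal axis), with lines at the medians of -0.755, -0.558 and -0.01. Names are given for the growth genes and for other genes beyond 0.3 either way, and Meg3 is the 1 growth gene above 0.

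Markers of stromal cells and fat were lower in mutant libraries too, without passing with 7 libraries. In bulk tissue, fewer cells of a type and less RNA per cell cannot be told apart. All 10 adipocyte markers were below 0 with 7 libraries (0 of 10 passed, median -1.45), and their sum was 10930 to 23050 FPKM in wild-type and 3538 to 6711 in mutant libraries. Of 10 fibroblast markers, 9 were below 0 (0 passed, median -0.78), with sums of 2491 to 3188 and 1512 to 2147 FPKM. All 9 markers of stromal precursors, among them Pdgfra and Cd34, were below 0 (0 passed, median -0.71), with sums of 436.3 to 852.2 and 291.0 to 310.8 FPKM. All 10 luminal markers were above 0 (0 passed, median 0.58). No marker of these 4 lists was at 0 in any library, and without WT3 and WT4 the medians were -1.18, -0.54, -0.48 and 0.40, and 2 of the 10 adipocyte markers fell (limma), beside 0.716% of all genes. Of all genes, 50.4% were below 0 with 7 libraries and 44.6% without WT3 and WT4. All 5 macrophage markers in the table were below 0 (0 passed, median -0.748), with sums of 87.3 to 152.7 FPKM in wild-type and 56.4 to 78.2 in mutant libraries. The 8 milk genes summed to 3994 to 45680 FPKM in wild-type and 80410 to 107100 in mutant libraries. Each was higher in every mutant library than in every wild-type library, beside 12.5% of all genes. None of the 8 passed with 7 libraries (median 2.84), and 7 rose without WT3 and WT4 (limma), beside 1.42% of all genes. The part of these cell types and of milk genes in the values of the growth genes was not tested.

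Likeness of pattern was measured as Pearson's r of log2(FPKM + 1) over the 7 libraries, which share the group difference and the departure of WT3 and WT4. Among the members, r was 0.929 for Grb10 with Ndn over the 7 libraries and 0.835 over the 5 without WT3 and WT4. It was 0.891 and 0.991 for Plagl1 with Grb10, and 0.795 and 0.995 for Meg3 with Rian. For Meg3 with Ndn it was -0.599 and 0.875, so that the order of the pairs, and here the sign, differed without WT3 and WT4. Over the 7 libraries, the genes tested that were most like Plagl1 were Fsd2 (0.988) and Rab34 (0.987), and those most like Grb10 were Phlda3 and Proca1 (both 0.989). Ndn was most like Medag and Cdr2 (both 0.996); Medag, a gene of maturing fat cells, measured 10.3 to 32.9 FPKM in wild-type and 6.36 to 9.22 in mutant libraries. H19 was most like Capn6 (0.993) and Moxd1 (0.992), which measured 3.57 to 8.46 and 11.3 to 19.8 FPKM in wild-type libraries. For Meg3 the nearest were Dna2 and Cyp46a1 (both 0.994), for Rian Adamts3 (0.984) and Ror2 (0.977), for Peg3 Fmo2 (0.99) and Trim29 (0.97) and for Mest Cyp2d37-ps (0.99) and Sptbn1 (0.981). With 7 points and 13392 genes, these values are given as a description.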

How the data were processed

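The authors deposited FPKM per gene for 7 RNA libraries of mouse mammary gland at day 13 of pregnancy, 4 wild type and 3 Socs2-Δs, in 1 table of 24187 rows. Per the submitters' processing notes, CASAVA, Bowtie2, STAR and DESeq2 were used with build mm9, with no roles; annotation and filters: not given in the sources used here. A further 9 samples (ChIP-seq and DNase-seq) were not analysed here. Rows were taken by symbol, and 24107 Entrez IDs were found in the RefSeq table of GRCm38.p6, used for gene order and sequences. Whole reads were recovered from FPKM steps (tolerance 0.02 of a read) for 21044 of 21044 rows above 0, and the totals of 21.3 to 24.5 M reads set the precision. Groups were compared with limma 3.58.1 (R 4.3.3; trend, Benjamini-Hochberg) on log2(FPKM + 1), keeping genes whose mean in the fitted libraries reached 1 FPKM, 13392 with all 7, without covariates; this was tested on simulated data. Ratios were compared by exact permutation. Named genes were the 9 members, other imprinted genes past the threshold, the 2 largest differences each way, 8 fixed partners and the 2 most alike genes per member, leaving out predicted genes; Klf14, Nnat, Begain, Lep, Sfrp5, Npr3 and the further noncoding RNAs were added with values seen. Alternatives covered the pseudocount, filter, scaling, weights, replicate number as a block and each library left out. The members and lists were chosen with earlier results of these data known.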

Additional observations from a re-analysis of the deposited data

How the results depend on the processing

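With 7 libraries the count of genes called moved from 6 to 1 with a pseudocount of 0.1, to 1 with no filter, to 0 with a filter at a mean of 5 FPKM, to 28 with quantile normalization, to 1371 with array weights, to 0 with the replicate block, to 284 without WT3 and WT4, and to 0 with a term for these; leaving out single libraries gave 0 to 31. Of the growth genes, array weights, which were estimated from these libraries, called 5 of 8 (H19, Rian, Plagl1, Grb10 and Ndn, all lower). Of all 13392 genes they called 736 as lower and 635 as higher. Leaving out WT3 and WT4 called 2 of 8 growth genes, beside 0.716% of all genes as lower and 1.42% as higher. Of 28 other imprinted genes, array weights called 6 (5 lower and 1 higher), and leaving out WT3 and WT4 called 1, as lower. Every other setting called 0 in both lists. In the 5 libraries, settings added after the data were seen called 0 growth genes without the trend, 3 with a filter at 5 FPKM (Rian too) and 0 to 0 with a further library left out. The difference of Meg3 was 0.35 with 7 libraries and -1.23 with array weights, -0.24 with the replicate block, -1.32 without WT3 and WT4 and -1.32 with a term for these. With single libraries left out it was -0.24 to 0.98, with -0.18 without WT3 and -0.24 without WT4. The cause was not tested. The other 7 members kept their direction under all alternatives with 7 libraries; in the 5 libraries Mest ranged from -2.02 to 0.11 with a further library left out, with 0.11 without WT1. The ratio of Igf2 to H19 was -0.12 to 0.36 with single libraries left out (below 0 without WT3 or Mut3). With a pseudocount of 0.1, the ratio of Dlk1 to Meg3 moved from -0.31 to -1.01 and that of Rian to Meg3 from -0.83 to -1.61. The ratio of Dlk1 to Meg3 turned to 1.31 without WT3 and WT4 and to 0.32 with the replicate block (-0.94 to 0.32 with single libraries left out), and that of Rian to Meg3 to 0.0916 without WT3 and WT4 (-1.16 to -0.38 with single libraries left out). With 5 libraries the smallest possible p of a ratio is 0.10, which that of Dlk1 to Meg3 reached, so that these settings could not pass. Same-numbered libraries correlated in their deviations by 0.35, -0.10 and 0.28. Mut1 and Mut3 correlated best with the wild-type library of their own number, and Mut2 with WT4 (0.338). Whether the replicate numbers mark anything shared was not tested. The block leaves WT4 without a partner. Depth limits Dlk1, Mirg and Rtl1, with 108 reads or fewer in a library.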

Other observations

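The imprinted genes Zim1, Peg10, Asb4 and Atp10a were lower in each mutant library than in each wild-type library. They were picked for this from the 49 other imprinted genes with a row, after their values were seen. Of the 28 of these in the fit, 5 were lower without overlap of the groups and 1 higher. Among all genes tested, 10.0% were lower without overlap and 12.5% higher. These counts and shares cover only genes in the fit, and none was taken for genes as low as Zim1, Peg10 and Asb4. Zim1, a maternally expressed zinc finger gene beside Peg3, measured 1.05, 0.701, 0.523 and 0.434 FPKM in WT1 to WT4 and 0.305, 0.32 and 0.198 in Mut1 to Mut3. Peg10, a paternally expressed gene derived from a retrotransposon and a neighbour of Sgce, measured 0.506 to 2.61 FPKM in wild-type and 0.25 to 0.423 in mutant libraries. Asb4, a gene of an ankyrin repeat protein in the same domain, measured 0.127 to 0.313 and 0.026 to 0.099 FPKM, from 2 to 21 reads. These 3 stayed out of the fit with means below 1 FPKM. Atp10a, a phospholipid transporter gene of the region that holds Ndn, measured 1.12 to 2.79 and 0.635 to 0.89 FPKM (log2 difference -0.68, limma adjusted p = 0.219). None passed with no filter either (limma adjusted p from 0.268 to 0.368).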
